A study of Homo sapiens with 32 samples.

Results

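Autophagy genes were followed in HCT116 cells, a human colorectal carcinoma line, with and without endoplasmic reticulum (ER) stress. The 10 genes are SQSTM1, MAP1LC3B, GABARAPL1, WIPI1, ATG5, ATG12, ATG16L1, BECN1, ULK1 and NBR1, and they were found by their symbols among the 60660 gene rows of the count table. All 10 passed the filter on low counts in every comparison, with between 181 and 13410 counts in a library. The parental line carries a tetracycline-inducible OsTIR1 transgene, and so do all knockout clones derived from it. There were 6 groups: parental cells in DMSO and in tunicamycin (4 libraries each, from 2 parental samples), IGF2BP3 knockout cells in DMSO and in tunicamycin (6 libraries each, from clones A3, D12 and E4), and IGF2BP2 knockout cells in DMSO and in tunicamycin (6 libraries each, from clones B7, F6 and G6). Every clone grew from a single cell sorted after transient transfection with Cas9 and a guide. Clones A3 and E4 were made with one guide and B7 and F6 with one guide, so 3 clones do not stand for 3 independent edits. The labels give tunicamycin at 5 µg/mL for 4 h for parental cells and IGF2BP3 knockout clones. For the IGF2BP2 knockout clones neither the dose nor the duration is given in the sources used here. The 2 libraries of a clone and treatment are not said to come from separate cultures, so p-values measure the spread between these libraries, which may be partly technical.

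Autophagy encloses part of the cytoplasm in a membrane, the autophagosome, and delivers it to the lysosome. The ULK1 kinase complex starts the process, a lipid kinase complex that contains BECN1 makes phosphatidylinositol 3-phosphate, and WIPI proteins bind that lipid. ATG12 joined to ATG5 and held by ATG16L1 then attaches the ATG8-family proteins, such as MAP1LC3B and GABARAPL1, to the growing membrane, where the receptors SQSTM1 and NBR1 dock with their cargo. Tunicamycin blocks N-linked glycosylation, so unfolded proteins build up in the ER, and the unfolded protein response that follows is known to raise the transcription of some autophagy genes. IGF2BP2 and IGF2BP3 are RNA-binding proteins that bind many mRNAs and are known for stabilizing them. The comparisons ask how far each autophagy transcript moved under tunicamycin, and whether its level or its response differed without either protein.

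Library totals were 16651438 to 24913021 counts. HSPA5, the ER chaperone BiP, and DDIT3, a transcription factor of the stress response, rose in parental cells under tunicamycin by 3.35 and 6.81 on the log2 scale. IGF2BP3 mRNA in the IGF2BP3 knockout clones was lower by a log2 difference of -1.48 in DMSO, and IGF2BP2 mRNA in the IGF2BP2 knockout clones by -1.02. Both transcripts were thus still present, and the edited alleles were not analysed here. In DMSO clones A3, D12 and E4 averaged 21.3, 41.4 and 20.2 CPM of IGF2BP3, against 76.7 and 76.4 CPM in the 2 parental samples. Clone D12 thus kept more of the targeted transcript than A3 and E4 did. The epithelial markers EPCAM, KRT8, KRT18, CDH1 and CDX2 were detected in every library, while VIL1 was near 0 in every library, as was the leukocyte marker PTPRC. The 2 control libraries of clone G6 are called control in their titles and tunicamycin in their treatment label. They averaged 906 CPM of HSPA5 and 2.67 CPM of DDIT3, against 9780 and 214 CPM in the tunicamycin libraries of that clone. In DMSO the other lines averaged 850 to 1002 CPM of HSPA5 and 1.96 to 3.65 CPM of DDIT3. By these 2 transcripts the G6 control libraries thus stood at the level of the DMSO libraries. These libraries were placed with DMSO by title. Tests of the members that use them were repeated without them, other than the test of responses between IGF2BP2 knockout clones. Levels and correlations were not repeated.

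The RNA of 2 members, MAP1LC3B and WIPI1, moved most, so the 250 bases before their annotated starts are shown. They are RefSeq sequences of build GRCh38.p14, written 5′ to 3′ on the strand of the gene. The MAP1LC3B stretch lies at chr16:87392086-87392335 on the plus strand and the WIPI1 stretch at chr17:68457497-68457746 on the minus strand. Capitals mark GC boxes (GGGCGG or its reverse complement) and CCAAT boxes (CCAAT or its reverse complement).
MAP1LC3B: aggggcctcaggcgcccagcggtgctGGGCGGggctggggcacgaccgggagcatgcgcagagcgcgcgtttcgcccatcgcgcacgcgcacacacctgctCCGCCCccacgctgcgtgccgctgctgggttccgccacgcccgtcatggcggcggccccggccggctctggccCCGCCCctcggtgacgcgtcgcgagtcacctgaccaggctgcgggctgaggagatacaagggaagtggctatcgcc
WIPI1: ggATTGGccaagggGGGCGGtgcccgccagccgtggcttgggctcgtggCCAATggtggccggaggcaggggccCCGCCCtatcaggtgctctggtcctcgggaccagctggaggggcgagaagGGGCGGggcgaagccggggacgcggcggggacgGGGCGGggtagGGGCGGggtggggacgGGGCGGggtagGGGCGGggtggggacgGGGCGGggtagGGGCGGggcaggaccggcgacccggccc

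RefSeq windows of 250 bases before to 50 bases after the start were found for all 10 members, 14 windows in all. They were searched on both strands for the core of the ATF4 and C/EBP composite element (TGATGNAA), the E-box bound by TFEB and TFE3 (CACGTG), the ER stress element (searched whole, by its name here) and the core of the unfolded protein response element (TGACGTGG). None of these letters occurred in any of the 14 windows. Among 35116 windows of all genes they occurred in 3.62%, 7.26%, 0.0769% and 0.729%. Elements outside the windows were not searched. GC boxes and CCAAT boxes were searched afterwards, because those 4 gave no match. A GC box occurred in 11 of the 14 windows and in 45.0% of all windows, and a CCAAT box in 4 of the 14 and in 34.6% of all. The WIPI1 stretch above carries several closely spaced GC boxes shortly before the start, and the MAP1LC3B stretch carries 3 that lie far apart. By gene, 8 of the 10 members had a GC box, all but ATG12 and BECN1. A link between these boxes and the response to tunicamycin was not tested.

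Levels are given as TMM-normalized CPM (counts scaled to library size) and, where genes are compared with each other, as CPM per kilobase of all annotated exons of the gene. In parental cells in DMSO, ATG12 had the highest level per length, at 45.5 ± 1.71 CPM per kilobase (SD, n = 4), followed by SQSTM1 at 17.3 ± 1.01, MAP1LC3B at 13.6 ± 1.48 and NBR1 at 10.8 ± 0.763. ATG5 (8.88 ± 0.854) and BECN1 (8.39 ± 0.480) differed from each other by less than their spread, and ATG16L1 followed at 5.88 ± 0.560. GABARAPL1 (4.56 ± 0.140), WIPI1 (3.61 ± 0.324) and ULK1 (2.09 ± 0.175) were lowest. Under tunicamycin MAP1LC3B stood first, at 65.3 ± 4.80 CPM per kilobase, beside ATG12 at 59.8 ± 3.81, and these 2 levels lay within the sum of their SDs. WIPI1 reached 8.23 ± 0.551 and so stood next to BECN1 at 8.82 ± 0.359, again within the sum of their SDs, while ULK1 remained lowest at 2.85 ± 0.386. Which transcripts of a gene were made is not known from gene counts, so the length used may overstate the real one.

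**Figure D1:**
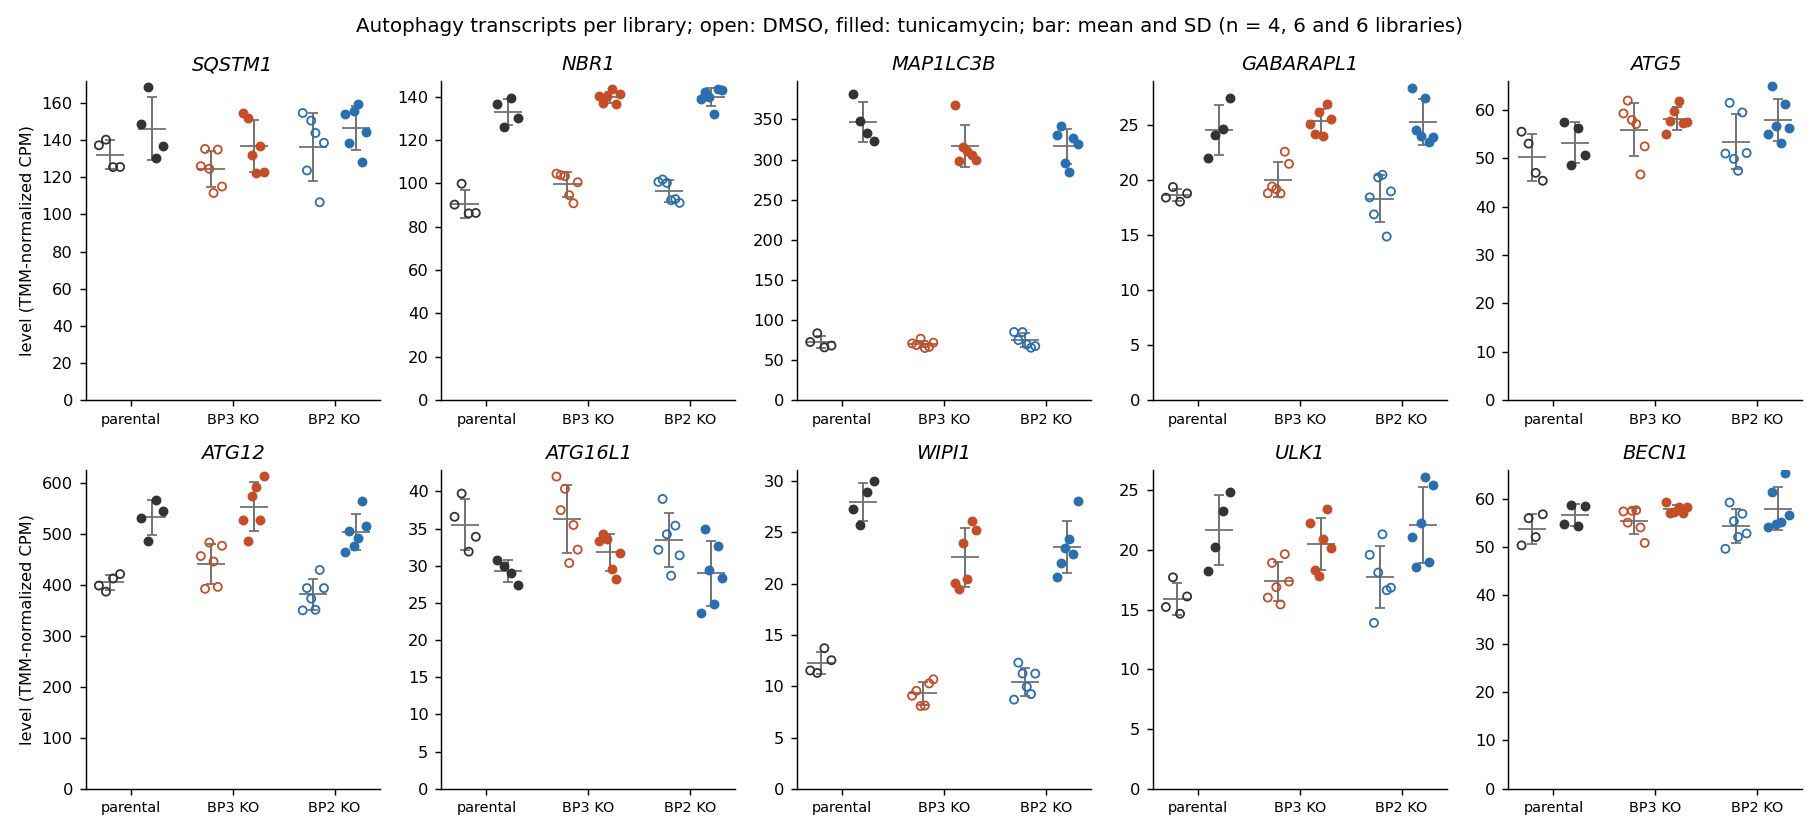
Level of each of the 10 autophagy transcripts (vertical axis, TMM-normalized CPM, from 0) in every library, by genotype, with open points for DMSO and filled points for tunicamycin; bars give the mean and SD (n = 4 parental, 6 IGF2BP3 knockout and 6 IGF2BP2 knockout libraries per treatment). The DMSO and tunicamycin points are fully apart for MAP1LC3B, WIPI1, NBR1, ATG12 and GABARAPL1 in each genotype, and overlap for SQSTM1, BECN1 and ATG5.

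Under tunicamycin the autophagy transcripts moved unequally, with MAP1LC3B, WIPI1 and NBR1 rising most in each genotype. MAP1LC3B rose by a log2 change of 2.26, 2.18 and 2.09 in parental, IGF2BP3 knockout and IGF2BP2 knockout cells, and WIPI1 by 1.19, 1.29 and 1.18. NBR1, ATG12, GABARAPL1 and ULK1 rose by smaller amounts. By the test described next, SQSTM1 and BECN1 passed in none of the genotypes, and ATG16L1, lower in each, passed in 2 of the 3. With the replicate number added to the fit as a block, SQSTM1 and ATG16L1 passed in all 3 genotypes and BECN1 in IGF2BP2 knockout clones. These and other fits are given below. In parental cells 7 of the 10 members passed the quasi-likelihood test of edgeR, with p-values adjusted by Benjamini and Hochberg's method, at 0.05 (6 higher, 1 lower), where 26.8% of the 14398 genes tested did (12.5% higher, 14.3% lower). In IGF2BP3 knockout clones 6 passed, all higher, where 33.8% of 14265 genes did (16.2% higher, 17.6% lower). In IGF2BP2 knockout clones 8 passed (7 higher, 1 lower), where 40.1% of 14145 did (19.2% higher, 20.9% lower). Without the control libraries of clone G6, 6 members passed in IGF2BP2 knockout clones, since ULK1 and ATG5 no longer did, where 30.8% of genes did. The median log2 change of the members was 0.40, 0.29 and 0.36 in the 3 genotypes, and that of all genes tested was -0.01 in each. The members were chosen with earlier results of these data known, so these shares and medians do not measure an excess among autophagy genes. The 3 genotypes share no library in these comparisons. Libraries with the same replicate number deviated together across lines (median r 0.481), so the 3 results are not fully independent.

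MAP1LC3B encodes LC3B, the ATG8-family protein whose lipid-joined form marks autophagosomes. In parental cells its level was 72.5, 83.4, 65.8 and 68.0 CPM in DMSO and 382, 348, 334 and 324 CPM in tunicamycin. In IGF2BP3 knockout clones it was 64.9, 69.7 and 76.6 CPM (lowest, median and highest of 6) in DMSO and 298, 309 and 368 CPM in tunicamycin, and in IGF2BP2 knockout clones 65.3, 72.1 and 85.0 against 284, 323 and 341 CPM. No DMSO library of any genotype exceeded 85.0 CPM and no tunicamycin library was below 284 CPM. The log2 changes had SEs of 0.08, 0.05 and 0.07, with adjusted p = 4.705e-08, 1.198e-12 and 1.465e-11 by edgeR. By size of rise MAP1LC3B ranked 68 of 14398, 70 of 14265 and 70 of 14145 genes.

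GABARAPL1, a member of the GABARAP branch of the same family, was 18.4, 19.3, 18 and 18.8 CPM in parental cells in DMSO and 22, 24, 24.6 and 27.4 CPM in tunicamycin. It was 18.8, 19.3 and 22.6 against 24, 25.3 and 26.9 CPM (lowest, median and highest) in IGF2BP3 knockout clones, and 14.8, 18.7 and 20.5 against 23.4, 24.2 and 28.3 CPM in IGF2BP2 knockout clones. The treatments did not overlap in any genotype. Its log2 change was 0.40 ± 0.07 (SE), 0.35 ± 0.06 and 0.47 ± 0.06, with edgeR adjusted p = 0.002654, 0.0003345 and 2.197e-05. GABARAPL2, a further ATG8-family gene, had log2 changes of 0.01, -0.05 and -0.10 and passed the test in no genotype (edgeR adjusted p = 0.9358, 0.648 and 0.3376). Over the 16 DMSO libraries the median level per length was 13.2 CPM per kilobase for MAP1LC3B and 12.9 for GABARAPL2, and over the 16 tunicamycin libraries 60.5 and 12.4. The family member GABARAP had 0 to 7 counts in every library. How the counting treated reads at that locus is not given in the sources used here, so its level was not read as absence and no share of the whole family was formed. MAP1LC3B2, a near-identical copy of MAP1LC3B with 10 to 93 counts, rose by 1.63, 1.22 and 1.25, and its reads may be shared with MAP1LC3B.

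WIPI1 binds phosphatidylinositol 3-phosphate on the forming membrane. It was 11.5, 11.3, 13.7 and 12.5 CPM in parental cells in DMSO and 27.3, 25.7, 28.9 and 30.0 CPM in tunicamycin. In IGF2BP3 knockout clones it was 8.07, 9.32 and 10.7 against 19.5, 22.2 and 26.1 CPM (lowest, median and highest), and in IGF2BP2 knockout clones 8.70, 10.6 and 12.3 against 20.6, 23.2 and 28.1 CPM. All tunicamycin libraries lay above all DMSO libraries. The log2 changes had SEs of 0.09, 0.09 and 0.08 (edgeR adjusted p = 1.039e-05, 5.044e-08 and 3.218e-08). ARSG, a gene on the opposite strand, covers 24.3% of the exon bases of WIPI1, and whether counting used the strand is not given. ARSG had 145 to 280 counts and itself rose by 0.34, 0.33 and 0.30 under tunicamycin, less than WIPI1 did, and its part in the WIPI1 counts was not tested.

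**Figure D2:**
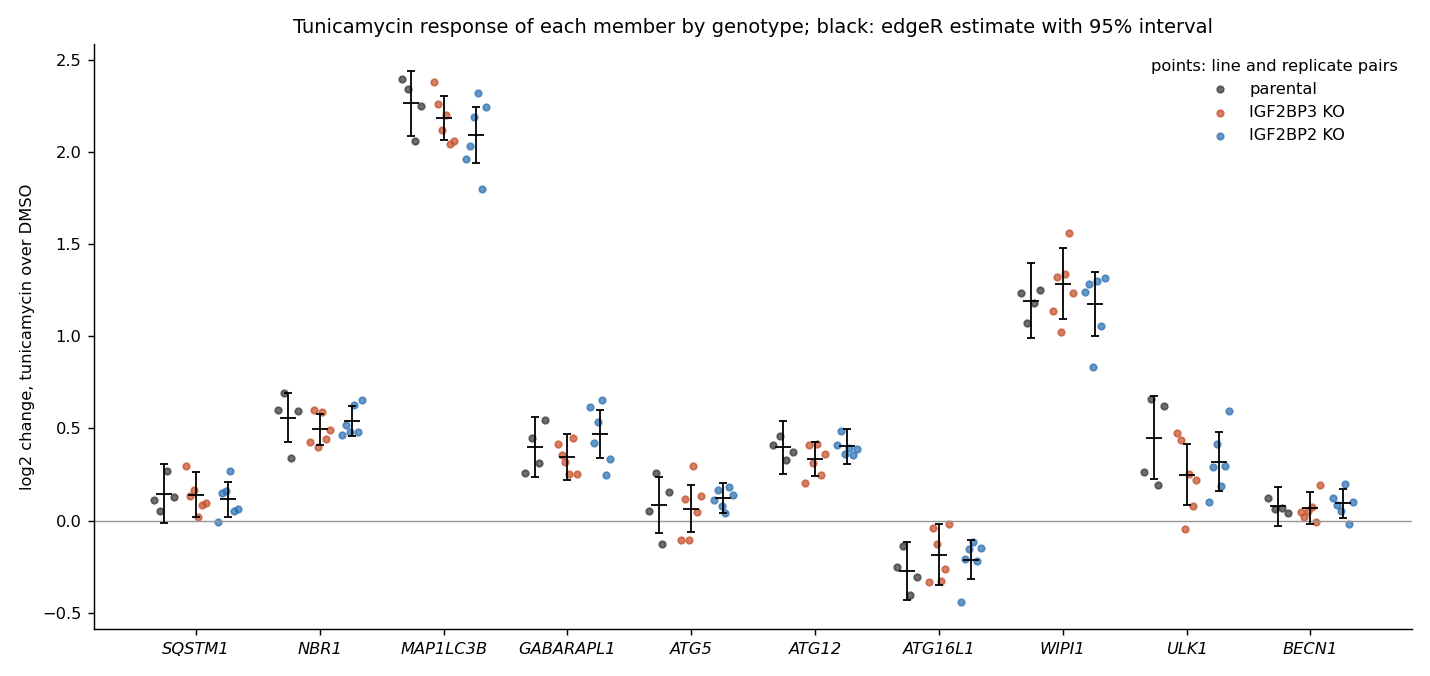
Tunicamycin response of each member (vertical axis, log2 change of tunicamycin over DMSO) in parental, IGF2BP3 knockout and IGF2BP2 knockout cells; coloured points are pairs of libraries of one line with the same replicate number, and black marks are edgeR's estimates with 95% intervals. MAP1LC3B lies near 2.2 and WIPI1 near 1.2 in each genotype, ATG16L1 lies below 0 in every pair, and the intervals of the 3 genotypes overlap for every member.

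Of the receptors, NBR1 rose and SQSTM1 did not pass the test. NBR1, which binds ubiquitin-tagged cargo, was 90.2, 99.9, 86.2 and 86.4 CPM in parental cells in DMSO and 137, 126, 139 and 130 CPM in tunicamycin. It was 90.8, 102 and 105 against 136, 140 and 144 CPM (lowest, median and highest) in IGF2BP3 knockout clones and 91.0, 96.5 and 102 against 132, 141 and 143 CPM in IGF2BP2 knockout clones. The treatments were fully apart in each genotype, and the log2 change was 0.56 ± 0.06 (SE), 0.50 ± 0.04 and 0.54 ± 0.04 (edgeR adjusted p = 9.543e-05, 1.944e-07 and 3.288e-08).

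SQSTM1 encodes p62, a receptor for ubiquitin-tagged cargo that is itself degraded by autophagy as a protein. It was 137, 140, 125 and 126 CPM in parental cells in DMSO and 148, 169, 130 and 137 CPM in tunicamycin. It was 112, 125 and 135 against 122, 134 and 155 CPM (lowest, median and highest) in IGF2BP3 knockout clones, and 107, 141 and 155 against 128, 149 and 159 CPM in IGF2BP2 knockout clones, so the treatments overlapped in each. The log2 change was 0.15, 0.14 and 0.11, with 95% intervals of -0.02 to 0.31, 0.02 to 0.26 and 0.02 to 0.21 and edgeR adjusted p = 0.1783, 0.07102 and 0.05317. Within lines, 15 of the 16 same-numbered pairs were higher in tunicamycin. With the replicate number as a block, SQSTM1 passed in all 3 genotypes (adjusted p = 0.01104, 0.01633 and 0.009071 by edgeR), and so it did with counts summed per line (0.02674, 0.00326 and 0.01239). In all, it passed under 2 of 12, 4 of 11 and 5 of 12 alternatives. All 3 intervals end at or below 0.31 on the log2 scale. MRNIP on the opposite strand covers 20.7% of the SQSTM1 exon bases, with 40 to 89 counts against at least 2157 for SQSTM1.

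The 3 genes of the conjugation complex took 3 courses. ATG12, the ubiquitin-like partner, was 398, 386, 412 and 421 CPM in parental cells in DMSO and 530, 486, 566 and 545 CPM in tunicamycin. It was 392, 451 and 483 against 486, 550 and 612 CPM (lowest, median and highest) in IGF2BP3 knockout clones and 350, 383 and 429 against 464, 499 and 563 CPM in IGF2BP2 knockout clones, with the treatments apart in each. Its log2 change was 0.40 ± 0.06 (SE), 0.33 ± 0.04 and 0.40 ± 0.04 (edgeR adjusted p = 0.001311, 2.974e-05 and 3.467e-06).

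ATG5, to which ATG12 is joined, was 55.5, 53.0, 47.0 and 45.4 CPM in parental cells in DMSO and 57.5, 48.6, 56.2 and 50.6 CPM in tunicamycin. It was 46.7, 57.5 and 61.9 against 55.0, 57.6 and 61.9 CPM (lowest, median and highest) in IGF2BP3 knockout clones, and 47.4, 51.1 and 61.5 against 53.2, 56.5 and 65.0 CPM in IGF2BP2 knockout clones. The treatments overlapped in each genotype. The log2 change was 0.08, 0.07 and 0.12, and of these the value in IGF2BP2 knockout clones passed (edgeR adjusted p = 0.4257, 0.4494 and 0.01788). That call held under 6 of 12 alternatives, and the 95% intervals of the other genotypes, -0.07 to 0.24 and -0.06 to 0.19, include it. The ATG5 response moved with the replicate number: the mean change was -0.04 in replicate 1 and 0.21 in replicate 2 of parental cells, and -0.05 and 0.18 in IGF2BP3 knockout clones, but 0.12 in both replicates of IGF2BP2 knockout clones.

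ATG16L1, which brings the ATG12-ATG5 pair to the membrane, was the member that fell. It was 36.6, 39.7, 31.9 and 33.9 CPM in parental cells in DMSO and 30.8, 30.0, 29 and 27.4 CPM in tunicamycin, with no overlap. It was 30.4, 36.5 and 42.0 against 28.2, 32.6 and 34.3 CPM (lowest, median and highest) in IGF2BP3 knockout clones and 28.7, 33.2 and 39.0 against 23.6, 28.9 and 35.0 CPM in IGF2BP2 knockout clones, with overlap in both. It was lower in tunicamycin in each of the 16 same-numbered pairs. The log2 change was -0.27 ± 0.07 (SE), -0.19 ± 0.08 and -0.21 ± 0.05 (edgeR adjusted p = 0.01736, 0.08044 and 0.003094), so ATG16L1 passed in parental cells and IGF2BP2 knockout clones. With the replicate number as a block it also passed in IGF2BP3 knockout clones (adjusted p = 0.008909 by edgeR), as it did under 3 of 11 alternatives in all. The parental call ended without replicate 1 of sample 1 (log2 change -0.29, adjusted p = 0.05965 by edgeR) or replicate 2 of sample 2 (-0.26, 0.05201), with changes about as large. That in IGF2BP2 knockout clones ended without clone B7 (-0.16, adjusted p = 0.056 by edgeR) or with no term for the clone (-0.21, 0.1229).

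Of the genes that start the process, ULK1 rose and BECN1 did not pass. ULK1, the kinase of the initiation complex, was 15.2, 17.7, 14.7 and 16.1 CPM in parental cells in DMSO and 18.3, 20.3, 23.2 and 24.8 CPM in tunicamycin. It was 15.4, 17.1 and 19.7 against 17.8, 20.6 and 23.4 CPM (lowest, median and highest) in IGF2BP3 knockout clones and 13.9, 17.5 and 21.3 against 18.6, 21.7 and 26.1 CPM in IGF2BP2 knockout clones. The parental treatments did not overlap, and those of both knockouts did. The log2 change was 0.45 ± 0.10 (SE), 0.25 ± 0.08 and 0.32 ± 0.07 (edgeR adjusted p = 0.008192, 0.02185 and 0.003161). The call in IGF2BP3 knockout clones was lost without clone A3 (log2 change 0.15, adjusted p = 0.2187 by edgeR) and without clone E4 (0.29, 0.05883). That in IGF2BP2 knockout clones was lost without clone G6 (0.25, adjusted p = 0.05864 by edgeR), without its control libraries alone (0.25, 0.0511) and with no term for the clone (0.32, 0.05074). The parental response was 0.23 in replicate 1 and 0.64 in replicate 2.

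BECN1, a subunit of the lipid kinase complex, was 50.4, 56.0, 52.1 and 56.8 CPM in parental cells in DMSO and 54.7, 58.7, 54.5 and 58.5 CPM in tunicamycin. It was 50.9, 56.2 and 57.6 against 57.0, 57.7 and 59.3 CPM (lowest, median and highest) in IGF2BP3 knockout clones and 49.6, 54.1 and 59.2 against 54.1, 56.0 and 65.2 CPM in IGF2BP2 knockout clones, with overlap in each. Its log2 change was 0.08, 0.07 and 0.09, with 95% intervals of -0.03 to 0.18, -0.02 to 0.15 and 0.01 to 0.17 and edgeR adjusted p = 0.284, 0.2203 and 0.06195. All 3 intervals end at or below 0.18. With the replicate number as a block BECN1 passed in IGF2BP2 knockout clones (adjusted p = 0.02986 by edgeR), as it did under 4 of 12 alternatives in all. PSME3 and CNTD1 on the opposite strand cover 4.68% and 12.4% of the exon bases of BECN1.

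Among 55 other autophagy genes, grouped by role, 52 passed the filter on low counts. In parental cells 17 rose and 4 fell under tunicamycin by edgeR at an adjusted p under 0.05, in IGF2BP3 knockout clones 20 and 5, and in IGF2BP2 knockout clones 21 and 5. Of all genes tested, 12.5% rose and 14.3% fell in parental cells, 16.2% and 17.6% in IGF2BP3 knockout clones, and 19.2% and 20.9% in IGF2BP2 knockout clones. Of the 52, 15 rose in all 3 genotypes, 4 fell in all 3, 23 were called in none, and none moved in opposite directions; of the 13890 genes tested in all 3 genotypes, 11.5% rose in all 3, 12.4% fell in all 3 and 54.2% were called in none. Genes named below beyond the 5 largest rises and the 5 largest falls of a comparison were chosen after their values were seen. The median log2 change of the list was 0.10, 0.06 and 0.08. Earlier results of these data were known when the list was chosen, so its shares do not measure an excess either.

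The rest of the ULK1 complex moved with ULK1: ATG13, RB1CC1 and ATG101 rose in every genotype, ATG13 by 0.71, 0.67 and 0.66 on the log2 scale, while the related kinase ULK2 did not pass (-0.13, -0.16 and -0.18). In the lipid kinase complex, NRBF2 (0.44, 0.40 and 0.43) and UVRAG rose in each genotype and PIK3R4, the regulatory subunit also called VPS15, fell by 0.57, 0.50 and 0.55 on the log2 scale. Among genes of lipid supply, TMEM41B, an ER membrane scramblase, rose by 1.40, 1.36 and 1.41, and WDR45, a relative of WIPI1, by 1.04, 0.85 and 1.00. WIPI2, the relative that recruits ATG16L1, passed in no genotype. Of the 7 conjugation genes outside the complex of ATG5, ATG12 and ATG16L1, ATG7 passed in parental cells (0.21, edgeR adjusted p = 0.0473) and none in either knockout.

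Among the other cargo receptors CALCOCO2, also called NDP52, rose by 1.01, 0.93 and 0.95 and TAX1BP1 by 0.36, 0.29 and 0.39, while TOLLIP fell by 0.30, 0.30 and 0.32 on the log2 scale. CCPG1, a receptor for ER-phagy, the autophagy of the ER itself, rose by 0.95, 0.48 and 0.81, and the ER-phagy receptor ATL3 fell in each genotype, TEX264 in both knockouts. The transcription factors of lysosomal and autophagy genes went both ways: TFE3 rose by 0.81, 0.73 and 0.75, FOXO3 by 0.54, 0.65 and 0.42, and TFEB fell by 0.75, 0.65 and 0.83 on the log2 scale. Of 8 genes of fusion and the lysosome, EPG5 rose in all 3 genotypes, and LAMP1, LAMP2, RAB7A, SNAP29 and VAMP8 passed in none.

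**Figure D3:**
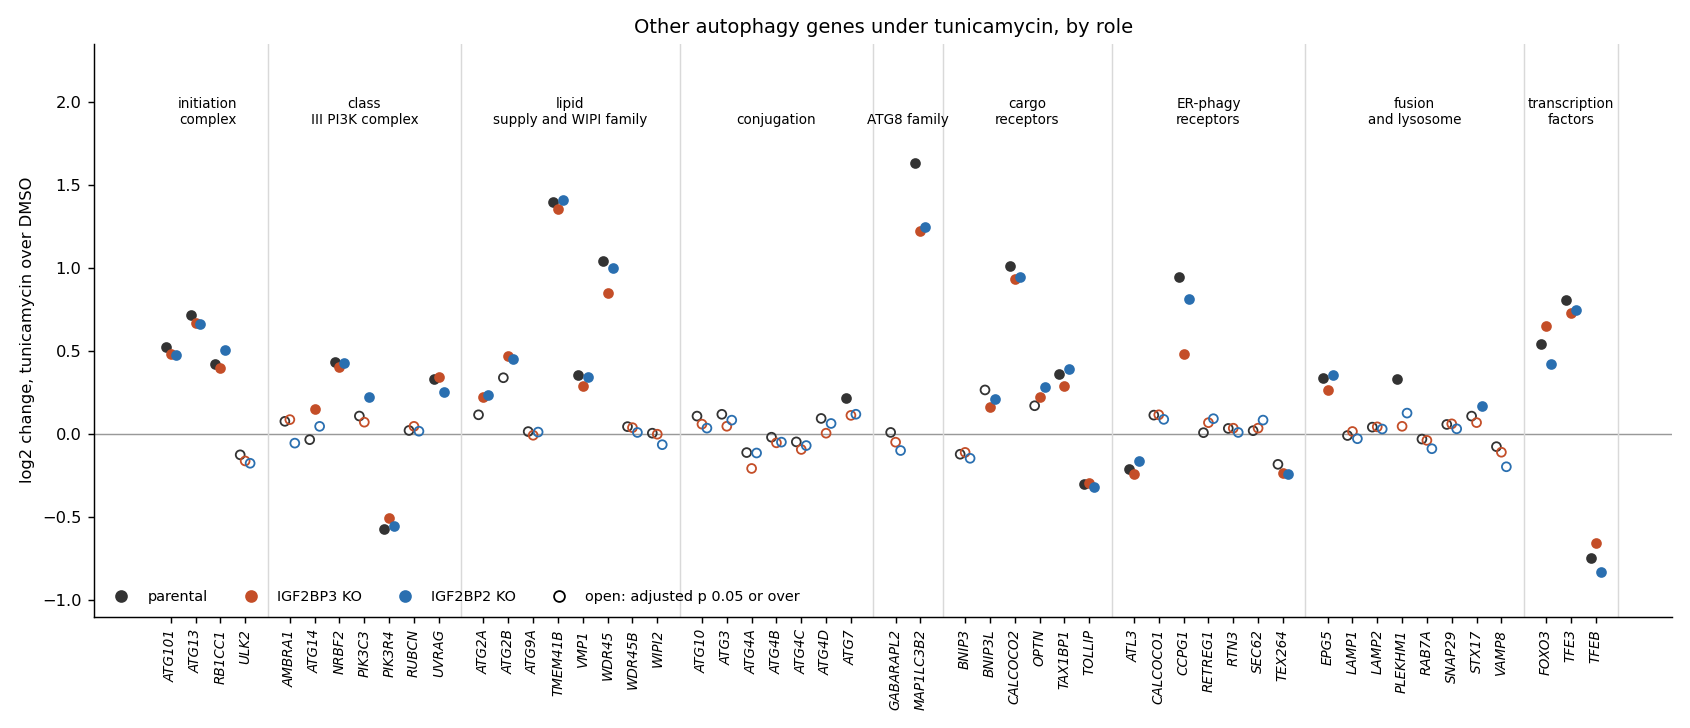
Log2 change of tunicamycin over DMSO (vertical axis) for the 52 other autophagy genes that passed the filter on low counts, grouped by role and coloured by genotype; filled points have an adjusted p under 0.05 by edgeR and open points do not. TMEM41B, MAP1LC3B2, CALCOCO2 and WDR45 stand highest, and TFEB and PIK3R4 lowest, in each genotype.

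The genes most like the 3 members with the largest mean change were sought among 10208 genes with a mean count of at least 100, by Pearson's r of log2 CPM over the 32 libraries. The nearest to MAP1LC3B were HERPUD1 (r = 0.9955), HSPA5 (0.9950) and DDIT4 (0.9946). The nearest to WIPI1 were DNAJC6 (0.9655), ASB1 (0.9651) and STARD4 (0.9633), and to NBR1 TES (0.9802), MTO1 (0.9771) and ATF6 (0.9762). The points share treatment, line and replicate number. Over the 16 libraries of one treatment r was lower in all 9 pairs: for MAP1LC3B and HSPA5 it was 0.482 in DMSO and 0.570 in tunicamycin, for WIPI1 and ASB1 0.543 and 0.867, and for NBR1 and TES 0.856 and 0.134.

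The knockouts were compared with parental cells at the same treatment to ask whether IGF2BP3 or IGF2BP2 sets the level of these transcripts. No member passed edgeR's test in any of the 4 comparisons. For IGF2BP3 knockout against parental cells in DMSO 1.61% of 14568 genes passed, and of the members WIPI1 and NBR1 had an unadjusted p under 0.05; DESeq2 called 1 member, WIPI1. In tunicamycin 0.718% of genes passed, with 1 member at an unadjusted p under 0.05 by edgeR and none called by DESeq2. For IGF2BP2 knockout clones the shares of genes were 0.0137% in DMSO and 0.00694% in tunicamycin, 0 members and 1 member had an unadjusted p under 0.05, and DESeq2 called none. None of the 52 other autophagy genes passed in these comparisons or in those of the responses, by edgeR; 4 to 6 of them per comparison had an unadjusted p under 0.05 between genotypes at one treatment. The 2 knockouts share the parental libraries, so their differences from parental cells are not independent.

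WIPI1 showed the largest difference of any member in each of the 4 comparisons. In DMSO the 6 IGF2BP3 knockout libraries (8.07 to 10.7 CPM) all lay below the 4 parental ones (11.3 to 13.7 CPM), and the log2 difference was -0.41 ± 0.10 (SE), with a 95% interval of -0.63 to -0.19 and adjusted p = 0.06362 by edgeR. WIPI1 was called under 4 of 14 alternatives: with the replicate block (adjusted p = 0.02043), by DESeq2 (0.01394), without a filter on low counts (0.02242) and with all 32 libraries in one fit (0.03041). With counts summed per line, so that the clone or parental sample was the unit, WIPI1 was not called (log2 difference -0.41, adjusted p = 0.1428 by edgeR). Leaving out any one clone or parental library gave log2 differences of -0.45 to -0.34 and called it in none of those fits. Replicates 1 and 2 taken alone gave -0.36 and -0.44. In tunicamycin the libraries overlapped and the log2 difference was -0.31 ± 0.10 (adjusted p = 0.252 by edgeR).

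In IGF2BP2 knockout clones the log2 difference of WIPI1 from parental cells was -0.23 ± 0.11 (SE) in DMSO and -0.24 ± 0.09 in tunicamycin (edgeR adjusted p = 0.9825 and 0.695). Without the control libraries of clone G6 the adjusted p in DMSO was 0.4096. Averaged over both treatments, WIPI1 was 20.4 and 19.9 CPM in the 2 parental samples, 14.4, 16.4 and 17.0 CPM in clones A3, D12 and E4, and 15.9, 16.6 and 18.5 CPM in clones B7, F6 and G6. Each of the 6 clones was thus below both parental samples in this mean. Whether growth from a single cell moves WIPI1 by itself was not tested, since the parental cells are not clones grown in the same way.

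NBR1 was higher in IGF2BP3 knockout clones in DMSO by a log2 difference of 0.13 ± 0.05 (SE; edgeR adjusted p = 0.2295), with overlapping libraries. For the 9 members other than WIPI1 the 95% intervals of the difference from parental cells lay between -0.31 and 0.40 in all 4 comparisons. These intervals take the library as the unit, not the clone or parental sample. They do not measure the spread between clones and may be too narrow as limits on an effect of the knockout. MAP1LC3B, with the largest response to tunicamycin, differed by -0.06 (interval -0.19 to 0.08) and -0.13 (-0.27 to 0.00) in IGF2BP3 knockout clones and by 0.04 (-0.14 to 0.23) and -0.13 (-0.26 to 0.01) in IGF2BP2 knockout clones, in DMSO and tunicamycin.

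**Figure D4:**
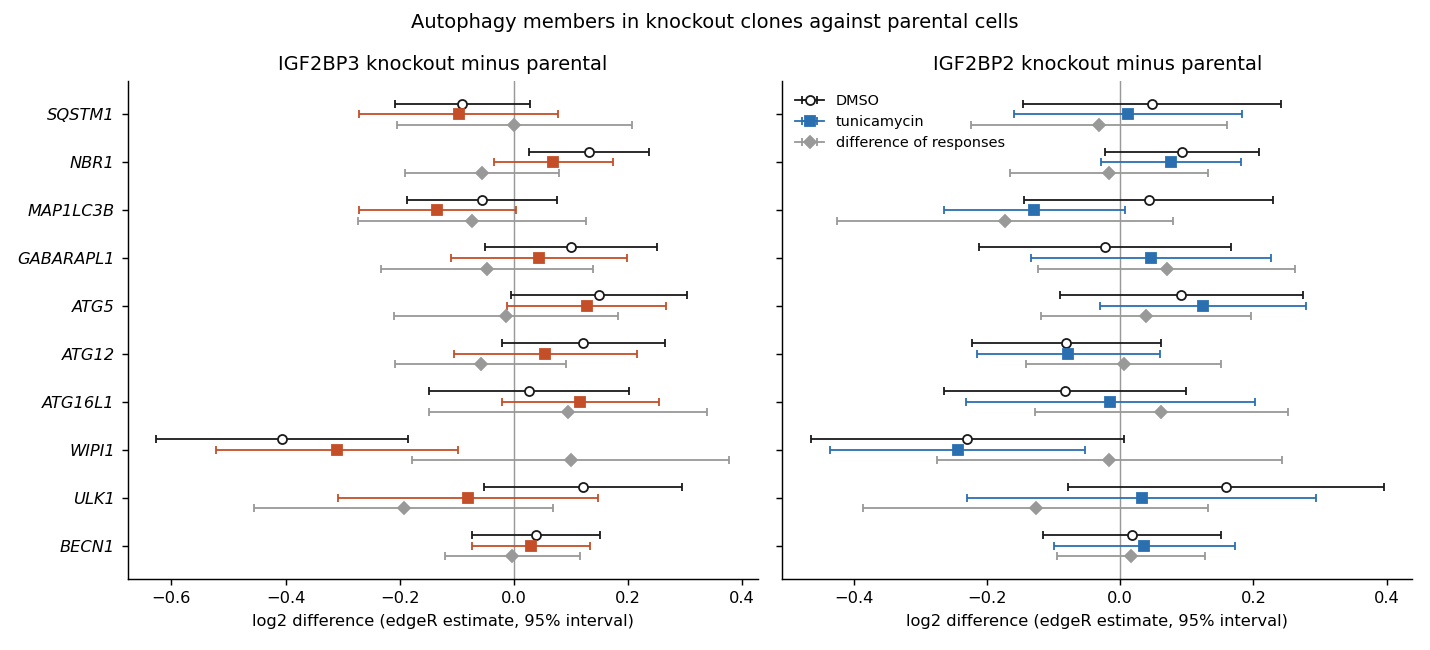
Log2 difference of each member between knockout clones and parental cells (horizontal axis, edgeR's estimate with its 95% interval) in DMSO and in tunicamycin, and the difference between the 2 genotypes' tunicamycin responses, for IGF2BP3 (left) and IGF2BP2 (right). WIPI1 lies to the left of 0 at both treatments in both knockouts, and the intervals of all differences of responses include 0.

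The difference between the tunicamycin responses was tested directly, as an interaction of genotype and treatment. By edgeR no member and none of 15313 genes passed for IGF2BP3 knockout clones, or of 15178 genes for IGF2BP2 knockout clones. DESeq2 called no member. An unadjusted p under 0.05 was reached by 255 and 213 genes, and by 0 members in each. Both counts lie well below the share of 0.05 that chance alone gives when no gene differs. The test was thus conservative here, and the lack of calls does not show that the responses were equal. The interval of the difference included 0 for all 10 members in both. The estimates for members ran from -0.19 (ULK1) to 0.10 (WIPI1) in IGF2BP3 knockout clones and from -0.17 (MAP1LC3B) to 0.07 (GABARAPL1) in IGF2BP2 knockout clones. The intervals over all members reached from -0.46 to 0.38 and from -0.42 to 0.26. For MAP1LC3B they were -0.27 to 0.13 and -0.42 to 0.08.

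Clones of one genotype were then compared with each other, over both treatments, by edgeR's F test over the 3 clones. Among IGF2BP3 knockout clones 1 member differed, where 7.63% of 14265 genes did: ATG12 averaged 505, 450 and 536 CPM in clones A3, D12 and E4, a largest gap between clones of 0.25 on the log2 scale (adjusted p = 0.02152). Without clone D12 the call was lost (adjusted p = 0.5815 by edgeR), as it was without clone E4.

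Among IGF2BP2 knockout clones 6 of the 10 members differed, where 26.4% of 14145 genes did. For each of these 6 members clones B7 and F6 stood at opposite ends, with G6 between them. SQSTM1 averaged 153, 124 and 147 CPM in clones B7, F6 and G6 (largest gap 0.32 on the log2 scale, edgeR adjusted p = 0.001128), so F6 was lowest. ULK1 averaged 22, 17.0 and 20.7 CPM (0.39, 0.01379) and GABARAPL1 23.6, 19.9 and 21.8 CPM (0.27, 0.03759), both lowest in F6. ATG5 averaged 51.7, 61.8 and 53.5 CPM (0.24, 0.002293) and BECN1 52.8, 60.7 and 54.9 CPM (0.18, 0.0184), both highest in F6.

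ATG16L1 averaged 27.3, 35.5 and 30.8 CPM in clones B7, F6 and G6 (largest gap 0.37 on the log2 scale, edgeR adjusted p = 0.001378), lowest in B7 and highest in F6. Of the 52 other autophagy genes tested, 3 differed among IGF2BP3 knockout clones (ULK2, ATL3 and OPTN) and 10 among IGF2BP2 knockout clones, with BNIP3L, RB1CC1 and ATG9A at the largest gaps, where 7.63% and 26.4% of all genes did, so the list's shares were no higher than those of all genes. Without clone F6 none of the 10 members was called between the remaining pair, without clone B7 2 were, and without clone G6 7 were. ATG12 was not called among IGF2BP2 knockout clones (414, 473 and 439 CPM, largest gap 0.18, edgeR adjusted p = 0.05376), but it was with the replicate number as a block (0.0008737) and under 6 of 10 alternatives in all. WIPI1 was not called between clones of either knockout (largest gaps 0.21 and 0.22, edgeR adjusted p = 0.4071 and 0.2183).

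The response to tunicamycin was not found to differ between clones of one genotype. No member and no gene passed edgeR's test of clone by treatment among IGF2BP3 or IGF2BP2 knockout clones, and DESeq2 called no member. An unadjusted p under 0.05 was reached by 85 and 193 genes, and by 0 members in each. Both counts lie well below the share of 0.05 that chance alone gives when no gene differs. The lack of calls therefore does not show that clones responded equally. The largest gap between the responses of IGF2BP3 knockout clones among the members was that of ULK1 (0.33 on the log2 scale).

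**Figure D5:**
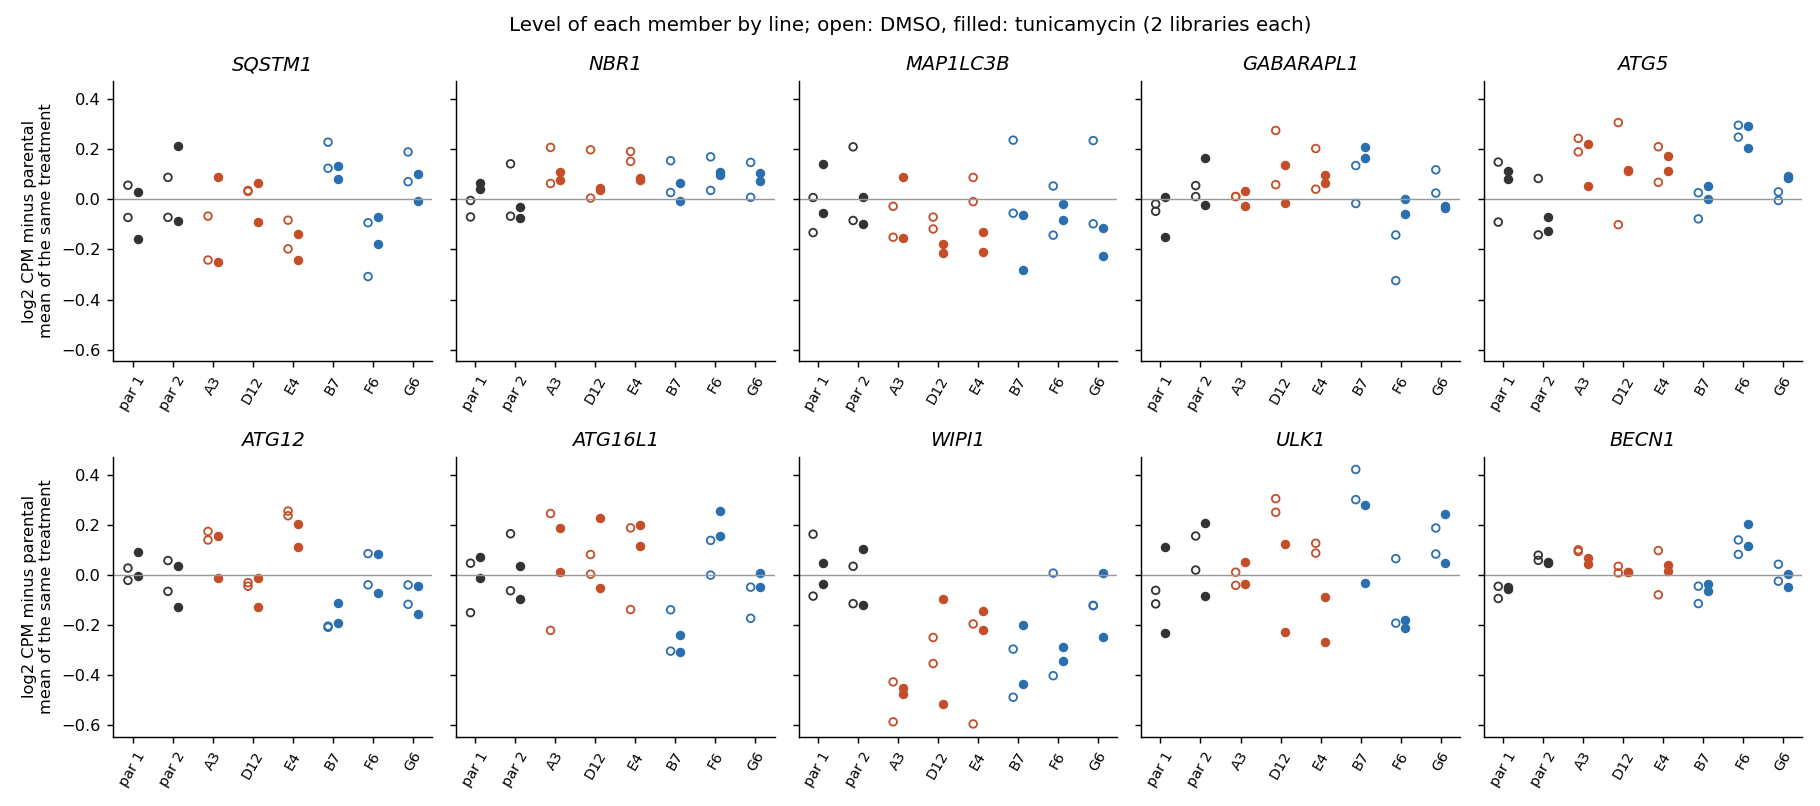
Level of each member in every library by line (horizontal axis: parental samples 1 and 2, IGF2BP3 knockout clones A3, D12 and E4, IGF2BP2 knockout clones B7, F6 and G6), as log2 CPM minus the parental mean of the same treatment; open points are DMSO and filled points tunicamycin. WIPI1 points of the knockout clones lie mostly below 0, and clone F6 stands apart from B7 and G6 for SQSTM1, ATG5 and BECN1.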

How the data were processed

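Poly(A)-selected RNA was sequenced from 32 libraries with a directional kit and paired reads, per the labels' protocols. The authors deposited whole-number counts per gene, 16651438 to 24913021 per library. STAR 2.7.5c and hg38 are named in the submitters' processing notes, with no role; the counting tool, the annotation and the use of strand are not given in the sources used here. Symbols came from a table of Ensembl identifiers, and positions and exon lengths from GENCODE release 29 on GRCh38.

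Only the libraries of the groups compared entered each fit, made with edgeR 4.0.16 in R 4.3.3 (TMM, filterByExpr, quasi-likelihood test), with Benjamini-Hochberg adjustment over all genes tested and a threshold of 0.05. Fits of treatment or of its interaction with genotype included a term for the line, and those between clones one for treatment. The SE is that implied by the F statistic. TMM factors for the CPM values came from all 32 libraries together (log2 with a prior count of 2). The procedure was tested on simulated data. DESeq2 1.42.0 and other filters, scalings, designs and left-out clones or libraries were the alternatives.

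Same-numbered libraries deviated together with r of 0.0615 to 0.683 (median 0.481), above 0.1 in 118 of 120 pairs of cells of line and treatment. Not every pair met the criterion for pairing, so the fits have no replicate term. Variation tied to the replicate number thus stayed in the spread used by the main tests. Fewer members were called under tunicamycin in each genotype than with the block. Values per replicate number or with the block stand beside results that they move. Between 21259 and 23139 genes were detected in a library numbered 1 and between 23423 and 24267 in one numbered 2. No replicate pair agreed within sampling noise.

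The members and lists were chosen with earlier results of these data known. All members are named. Of the other autophagy genes, up to 5 called genes with the largest rise and 5 with the largest fall are named per treatment comparison and up to 3 each way per other comparison; further names were chosen after their values were seen.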

Additional observations from a re-analysis of the deposited data

Results flagged for a closer look

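Among 60 sets of libraries tested (10 members in 6 groups), 1 had a library far from the others, where chance alone gives about 1 in 20. MAP1LC3B stood at 368.2 CPM in replicate 1 of clone A3 in tunicamycin, while the other 5 IGF2BP3 knockout libraries in tunicamycin lay between 298.0 and 315.8 CPM. The gap to the nearest was 0.746 of the whole range.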

How the results depend on the processing

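No member's log2 change reversed in a comparison that called it. The number of members called under tunicamycin in IGF2BP2 knockout clones was 5 without a term for the clone, against 8. For IGF2BP3 knockout against parental cells in DMSO it was 1 (WIPI1) with the replicate block, by DESeq2, without a filter on low counts and with all 32 libraries in one fit, against 0. Leaving out each clone in turn gave 0 to 2 members differing among IGF2BP3 knockout clones and 0 to 7 among IGF2BP2 knockout clones. With the replicate block, 8, 8 and 10 members were called under tunicamycin in parental, IGF2BP3 knockout and IGF2BP2 knockout cells, while the share of all genes called rose to 41.6%, 41.9% and 49.9%; the gains were SQSTM1 in each genotype, ATG16L1 in IGF2BP3 knockout clones and BECN1 in IGF2BP2 knockout clones. ATG12 was the gain among IGF2BP2 knockout clones, at 7 against 6. Other than in IGF2BP3 knockout against parental cells in DMSO, the numbers of members called with the block were within 1.5 times those without it. The share of all genes called in parental cells, 26.8% without the block, rose by more than that. Small changes of ATG5, BECN1, SQSTM1 and ATG16L1 lay near the limit of what these libraries separate.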
